A study of Mus musculus with 6 samples.

Results

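Immediate early genes were compared between WT and *Drp1* KO macrophages by 10 listed members, taken by gene symbol: *Fos*, *Fosb*, *Fosl2*, *Jun*, *Junb*, *Jund*, *Egr1*, *Egr3*, *Ier2* and *Dusp1*. Each gene's level is the sum of the estimated counts over its transcripts, and all 10 members were among the 18506 genes tested. Of the members, 9 encode transcription factors or nuclear regulators, and *Dusp1* encodes a MAP kinase phosphatase, so the list is called immediate early genes here. The study examined how DRP1, the GTPase that divides mitochondria, acts in macrophages during ischemia. Bone marrow was differentiated for 7 days with medium from L929 cells, which supplies M-CSF, and the resulting bone marrow-derived macrophages (BMDMs) were held for 8 h in serum-free medium at low oxygen (2.1% in the labels), a treatment called hypoxia serum starvation (HSS). WT cells were *LysM*-Cre+/- *Drp1*+/+ and *Drp1* KO cells were *LysM*-Cre+/- *Drp1* fl/fl, so both groups carried Cre, which the lysozyme M promoter drives in myeloid cells. The mice were 8 to 12 weeks old and of both sexes, with a C57BL/6J background for the Cre line, and marrow of 2 mice was pooled for culture. Each group had 3 poly(A) RNA-seq libraries numbered as biological replicates, and the sources used here do not say whether each came from a separate pool, so p-values measure the spread between these libraries. Both groups received HSS, so a level before stimulation was not analysed here and no induction could be measured.

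Immediate early genes are transcribed within minutes of a growth factor, stress or danger signal, from factors that are already in the cell. FOS and JUN proteins pair through leucine zippers to form AP-1, EGR proteins bind GC-rich sites through zinc fingers, and MAP kinases act upstream through SRF, the ternary complex factors, CREB and JUN itself. Most of these mRNAs decay quickly, and DUSP1 closes the loop by removing the activating phosphates of JNK, p38 and ERK, a brake on cytokine production that is well known in macrophages.

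The libraries held 23389488 to 32231206 estimated reads. The macrophage markers *Adgre1*, *Csf1r*, *Itgam*, *Cd68*, *Fcgr1*, *Mertk* and *Cd14* summed to 4192 to 4924 CPM (counts scaled to the normalized size of the library) in WT and 3820 to 4786 CPM in *Drp1* KO. Of these 7, 3 were called, *Fcgr1* as higher in *Drp1* KO (log2 fold change 1.34, adjusted p = 0.000322, edgeR) and *Csf1r* and *Mertk* as lower (-0.52 for both, adjusted p = 0.0340 and 0.0236, edgeR). Neutrophil markers summed to 6.86 to 21.1 CPM in WT against 20.6 to 48.4 CPM in *Drp1* KO. Of these 9 markers, 6 could be tested and all 6 had higher fitted levels in *Drp1* KO, 0 at an adjusted p under 0.05 with edgeR (4 at an unadjusted p under 0.05, as 16.4% of all genes, and 2 by adjusted p with DESeq2). The library number was also fitted as a block, a pairing that was taken from these data and that the sources used here do not state. With this block, 4 of the 6 were called higher, *S100a8*, *S100a9*, *Ltf* and *Ngp* (adjusted p = 0.00145, 7.85e-05, 0.0194 and 0.00264, edgeR). Each was higher in 3 of 3 same-number pairs, while *Ly6g* and *Retnlg* were at or under 3 counts in every library. Endothelial markers summed to 25.2 to 31.3 CPM in WT against 38.0 to 43.2 CPM in *Drp1* KO, with *Tek* and *Emcn* at that floor and *Kdr* called as higher (log2 fold change 0.94, adjusted p = 0.0144, edgeR). The sums of fibroblast, dendritic cell and lymphocyte markers were under 5 CPM in each library. The targeted gene, *Dnm1l*, had 69.9 to 75.1 CPM in WT against 58.8 to 66.3 CPM in *Drp1* KO, a log2 fold change of -0.23 (adjusted p = 0.248, edgeR). The paper reported the deletion by DRP1 protein in BMDMs, which mRNA summed over transcripts does not measure. Libraries 1 of both groups had the lowest share of mitochondrially encoded counts within their group, 0.297% in WT and 0.342% in *Drp1* KO, against 0.494% to 0.690% in the other 4 libraries.

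Among the 10 members, *Dusp1* was higher in *Drp1* KO BMDMs and passed the test, *Jun* and *Ier2* were lower (fold 0.752 and 0.737) without passing it, and the other 7 had intervals of the difference that included 0. The test was edgeR's quasi-likelihood test, with Benjamini-Hochberg adjustment over all genes. At an adjusted p under 0.05 it called 1 of the 10 members, against 3.36% of all genes tested, 2.29% higher and 1.06% lower. The study's own criteria, a log2 fold change over 0.32 in size with an unadjusted p under 0.05, were met by 3 members, *Jun* and *Ier2* downward and *Dusp1* upward, against 12.7% of all genes (7.19% higher and 5.48% lower). The libraries of the groups did not overlap for 2 members, *Ier2* below and *Dusp1* above WT, against 21.9% of all genes (11.7% higher and 10.3% lower), so that count lay near the background. Of the members, 4 had a lower fitted level in *Drp1* KO and 6 a higher one, where 49.4% of all genes were lower and 50.6% higher. Libraries of the same number differed in 1 direction in all 3 pairs for 4 members, *Jun*, *Jund* and *Ier2* downward and *Dusp1* upward, against 45.7% of all genes (22.1% lower and 23.7% higher), which is again near the background. With the library number as a block, *Jun* passed as well, and 2 of the 10 were called against 12% of all genes, 6.73% higher and 5.22% lower. Without libraries 1 of both groups, 3 of the 10 were called, *Jun*, *Jund* and *Dusp1*, against 10.5% of all genes.

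**Figure D1:**
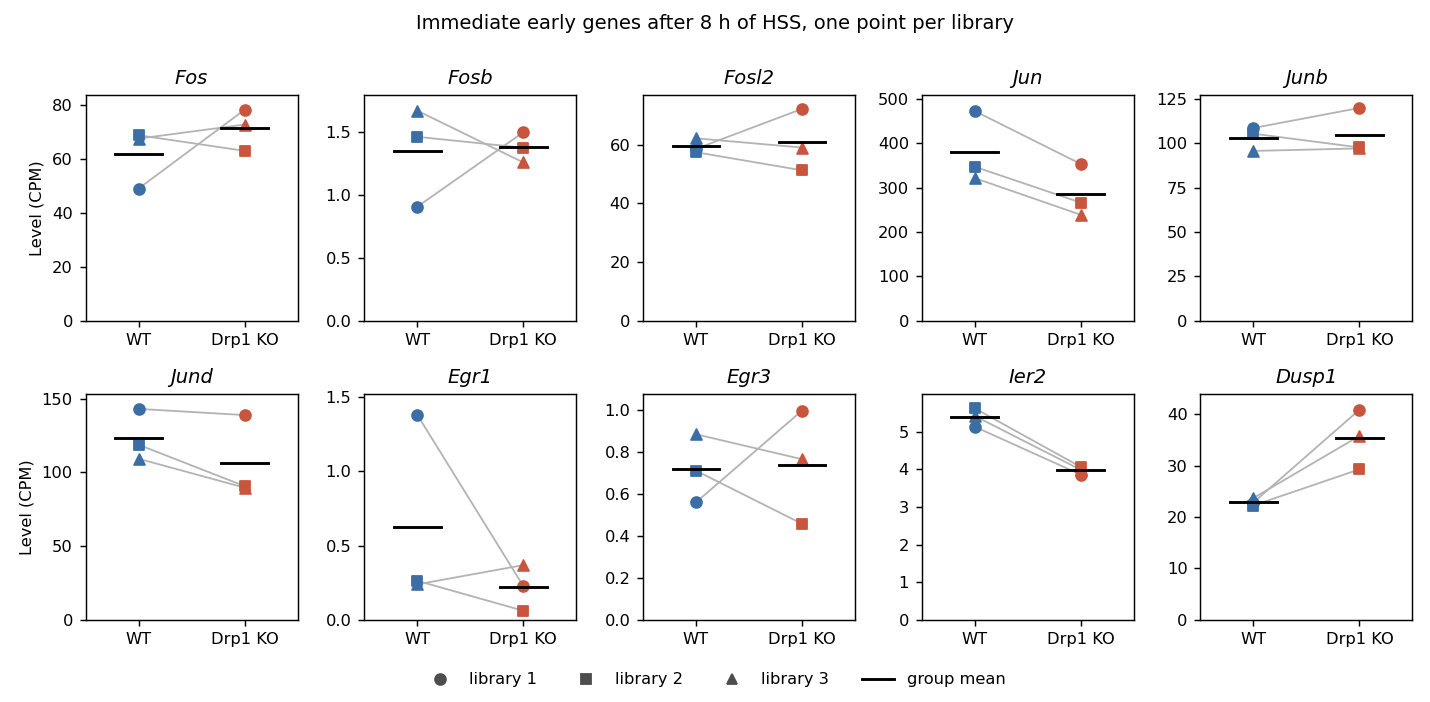
Level of each of the 10 immediate early genes in CPM (y axis, linear, from 0, a separate scale per gene) in the 3 WT (blue) and 3 *Drp1* KO (red) libraries, with a bar at each group mean and grey lines joining libraries of the same number. The 3 *Dusp1* points of *Drp1* KO, 29.3 to 40.9 CPM, lie above all WT points, the 3 *Ier2* points, 3.86 to 4.06 CPM, lie below them, and the 3 *Jun* lines run downward from different heights.

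The promoters of the 3 members that met the study's criteria are shown for the sites of the cAMP response element (CRE) family that they hold, which CREB, ATF and JUN proteins bind. The 250 bases before the start of the canonical transcript were read from GRCm39 and searched on both strands. The palindromic CRE, TGACGTCA, is in 1.69% of 21770 protein-coding promoters of this length and the variant TGACATCA in 2.61%. The capitals mark these matches, and each sequence is written in the direction of transcription.
Jun, chr4:94940460-94940709, minus strand, GRCm39: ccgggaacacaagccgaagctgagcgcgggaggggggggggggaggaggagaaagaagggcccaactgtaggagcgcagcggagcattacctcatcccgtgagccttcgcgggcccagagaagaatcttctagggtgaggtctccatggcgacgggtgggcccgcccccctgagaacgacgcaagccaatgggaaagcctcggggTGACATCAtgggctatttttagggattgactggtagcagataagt
Ier2, chr8:85389484-85389733, minus strand, GRCm39: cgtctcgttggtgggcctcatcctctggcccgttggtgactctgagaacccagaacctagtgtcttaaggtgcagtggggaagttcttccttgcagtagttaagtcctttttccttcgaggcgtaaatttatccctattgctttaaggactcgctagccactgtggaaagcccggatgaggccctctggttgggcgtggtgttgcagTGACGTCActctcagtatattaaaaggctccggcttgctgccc
Dusp1, chr17:26727494-26727743, minus strand, GRCm39: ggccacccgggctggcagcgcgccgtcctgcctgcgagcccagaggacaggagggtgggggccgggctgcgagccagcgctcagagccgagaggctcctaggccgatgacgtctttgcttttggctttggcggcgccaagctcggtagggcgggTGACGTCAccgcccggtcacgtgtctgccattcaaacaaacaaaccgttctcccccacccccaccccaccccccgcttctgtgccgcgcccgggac
The variant in *Jun* lies 45 to 38 bases before the start. The CRE of *Ier2* lies 43 to 36 bases before it and that of *Dusp1* 96 to 89 bases before it, so a CRE stood before a gene with a lower and a gene with a higher fitted level. *Jund* also had a CRE, 214 to 207 bases before its start. The EGR site GCGNGGGCG is in 4.48% of the promoters, and it was found 1 time before *Fosb* and 3 times before *Jund*. The CArG box, the site of SRF, is in 1.40% of promoters and in that of *Egr3*, 58 to 49 bases before the start. No member had the AP-1 site TGANTCA in this window, which 6.17% of promoters hold, and *Fos*, *Fosl2*, *Junb* and *Egr1* had none of the sites searched. A match is a run of letters and not a measured site. Only full matches within these 250 bases were searched, so partial sites and sites farther from the start were not covered.

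Levels of the members were first compared with each other in TPM, which allows for transcript length. *Jun* had the highest mean over the 6 libraries at 120 TPM, followed by *Fos* at 77.3, *Jund* at 67.2, *Junb* at 61.2, *Dusp1* at 22.2, *Fosl2* at 13.1, *Ier2* at 3.46, *Fosb* at 0.851, *Egr3* at 0.265 and *Egr1* at 0.105 TPM. These values sum all annotated transcripts of a gene, and the place of *Fos* above *Jund* and *Junb* rests on its short ones. The coding Fos-201 had 19.3 to 32.9 TPM, and the 631-base Fos-202, none of whose 31-base words is unique to it, had 22.7 to 39.1 TPM. In CPM, which does not allow for length, *Fos* had a mean of 61.8 in WT, against 124 for *Jund* and 103 for *Junb*. The ranges of *Fos* and *Jund* overlapped, although *Jund* was the lower of the pair in 5 of 6 libraries, and so did those of *Jund* and *Junb*, where *Junb* was lower in 4 of 6. *Egr3* and *Egr1* also overlapped, with *Egr1* lower in 5 of 6. The other neighbours in this order kept it in all 6 libraries. After 8 h of HSS, *Jun*, *Fos*, *Jund* and *Junb* were thus the leading FOS and JUN family mRNAs in TPM summed over transcripts in both groups, with *Fosl2* below them, while *Fosb*, *Egr3* and *Egr1* had means under 1 TPM.

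*Fos*, the founding AP-1 partner of JUN, lies on chromosome 12 of GRCm39 from 85520658 to 85524047. WT libraries 1, 2 and 3 had 49.0, 68.9 and 67.6 CPM, and *Drp1* KO libraries had 78.3, 63.1 and 72.8 CPM. The groups overlapped, with WT library 1 below all others. Means were 61.8 ± 11.1 CPM in WT against 71.4 ± 7.73 CPM in *Drp1* KO (SD, n = 3 each), and the log2 fold change was 0.21 (95% interval -0.11 to 0.52, adjusted p = 0.540, edgeR). The same-number differences (log2 *Drp1* KO minus WT) were 0.68, -0.13 and 0.11, the largest of them between libraries 1, and without both of these the fitted value was -0.0080.

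*Fosl2*, which encodes FRA2, a FOS protein without a strong activation domain, lies on chromosome 5 from 32292707 to 32315186. Its levels were 58.6, 57.4 and 62.2 CPM in WT against 72.2, 51.2 and 59.0 CPM in *Drp1* KO. The *Drp1* KO libraries spread to both sides of WT. The log2 fold change was 0.03 (95% interval -0.25 to 0.31, adjusted p = 0.951, edgeR). *Fosb* (chromosome 7, 19036621 to 19043976), whose short splice form is the stable ΔFOSB, had 21, 39 and 49 counts in WT and 33, 45 and 41 counts in *Drp1* KO. These are 1.35 ± 0.395 CPM and 1.38 ± 0.120 CPM (SD, n = 3 each), and the interval of its log2 fold change, -0.66 to 0.70, was wide at this depth. *Fosl1*, the remaining FOS family gene, was at 1.24 ± 0.205 CPM in WT against 1.11 ± 0.845 CPM in *Drp1* KO (SD, n = 3 each, adjusted p = 0.910, edgeR).

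*Jun* lies on chromosome 4 from 94937271 to 94940459 and encodes the AP-1 subunit that JNK phosphorylates. Its 3 WT libraries had 473, 347 and 321 CPM, and its 3 *Drp1* KO libraries had 353, 266 and 239 CPM. The groups overlapped, since *Drp1* KO library 1 was above WT libraries 2 and 3, and library 1 was the highest of each group. Within each number *Drp1* KO was lower, by log2 differences of -0.42, -0.38 and -0.43. Means were 380 ± 80.9 CPM in WT against 286 ± 59.8 CPM in *Drp1* KO (SD, n = 3 each), a fold of 0.752 and a log2 fold change of -0.41 (95% interval -0.80 to -0.02). Without a block the adjusted p was 0.271 (edgeR), and with the library number as a block the standard error went from 0.174 to 0.0684 and the adjusted p to 0.00358 (edgeR). The pairing behind the block was chosen from these same data. Without libraries 1 of both groups the log2 fold change was also -0.41, with an adjusted p of 0.0183 (edgeR). Leaving out only WT library 1 gave -0.23, and leaving out only *Drp1* KO library 1 gave -0.60. In TPM the groups did not overlap, with 172, 125 and 124 TPM in WT and 121, 92.9 and 86.7 TPM in *Drp1* KO. The gene *Junos* is annotated on the opposite strand over all 3189 bases of *Jun*, and whether the counting used strand is not given in the sources used here. The overlap is of gene spans, introns included, and how much of it lies in exons of *Junos* was not measured. Without strand, reads from a stretch that is exonic in both genes cannot be told apart.

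*Jund*, the JUN gene that resting cells already express, lies on chromosome 8 from 71151599 to 71153265. WT libraries had 143, 119 and 109 CPM and *Drp1* KO libraries had 139, 90.7 and 89.6 CPM. *Drp1* KO libraries 2 and 3 were below all WT libraries, and library 1 was close to its WT counterpart. The log2 fold change was -0.22 (95% interval -0.60 to 0.17, adjusted p = 0.617, edgeR). It was -0.34 without libraries 1 of both groups (adjusted p = 0.0267, edgeR), and with the block the adjusted p was 0.0930 (edgeR). *Junb* (chromosome 8, 85701113 to 85705359), a JUN partner that can restrain AP-1 and supports macrophage activation, had 109, 105 and 95.7 CPM in WT against 120, 97.6 and 97.1 CPM in *Drp1* KO. These groups overlapped almost fully, and the interval of the log2 fold change was -0.22 to 0.26 (adjusted p = 0.967, edgeR). In gene spans, introns included, *Prdx2* is annotated on the opposite strand over 1238 bases of *Junb*, and *Gm11175* over 919 bases of *Jund*. *Jun*, *Junb* and *Jund* were each highest in library 1 and lowest in library 3 of both groups. Genes outside the family, such as *Csrnp1* and *Dusp4*, had the same order, and its share over all genes was not counted.

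**Figure D2:**
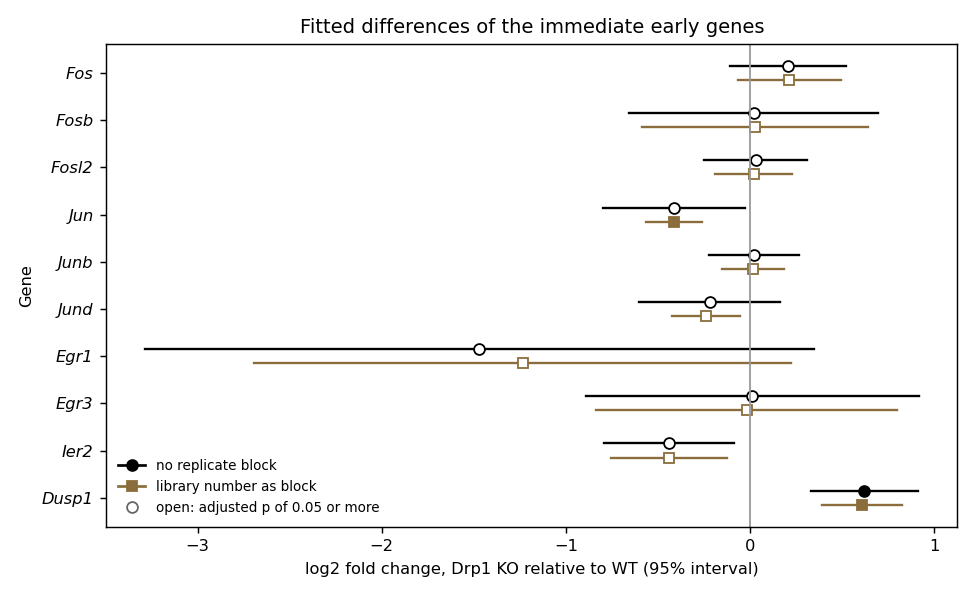
Fitted log2 fold change of each member, *Drp1* KO relative to WT (x axis), with its 95% interval, from edgeR without a block (black circles) and with the library number as a block (brown squares); filled symbols have an adjusted p under 0.05. *Dusp1* is filled in both fits and *Jun*, at -0.41, is filled with the block, while the interval of *Egr1* runs from -3.29 to 0.35.

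The EGR members had the lowest levels of the list. A floor of 3 counts, a limit set by counting error alone, equals 0.0917 to 0.136 CPM here. *Egr1* (chromosome 18, 34992876 to 34998049), a zinc finger factor that shear stress, hypoxia and growth factors induce, had 32, 7 and 7 counts in WT and 5, 2 and 12 counts in *Drp1* KO. WT library 1 held 32 of the 46 counts of its group. The log2 fold change was -1.47 (95% interval -3.29 to 0.35, adjusted p = 0.424, edgeR). Leaving out single libraries gave -2.15 (*Drp1* KO library 3) to -0.19 (WT library 1) over the 6 fits. No difference was detected, and the parts of low depth and of the spread between libraries in this were not tested. *Egr3* (chromosome 14, 70314350 to 70320063), a related factor known for its part in muscle spindles and lymphocytes, had 13, 19 and 26 counts in WT and 22, 15 and 25 counts in *Drp1* KO. The groups overlapped, and the interval of the log2 fold change was -0.89 to 0.92. *Egr2*, a known factor of the M-CSF and alternatively activated macrophage programme, had 13.4, 14.02 and 13.9 CPM in WT against 10.4, 5.81 and 10.4 CPM in *Drp1* KO. All *Drp1* KO libraries were lower than all WT libraries. Its log2 fold change was -0.64 (SE 0.205), with an adjusted p of 0.137 without the block and 0.0227 with it (edgeR), and it passed in 3 of 15 other settings.

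*Ier2* (chromosome 8, 85387960 to 85389483) is a short nuclear regulator without a DNA-binding domain of known type, and its promoter is the second sequence printed above. WT libraries had 5.13, 5.62 and 5.42 CPM and *Drp1* KO libraries had 3.86, 4.06 and 3.99 CPM. The groups did not overlap, and the gap between them was wider than the range of either group. Means were 5.39 ± 0.246 CPM in WT against 3.97 ± 0.103 CPM in *Drp1* KO (SD, n = 3 each), a fold of 0.737. The log2 fold change was -0.44 (95% interval -0.79 to -0.09), with same-number differences of -0.41, -0.47 and -0.44. It did not pass the correction, with an unadjusted p of 0.0193 and an adjusted p of 0.190 (edgeR), and 0 of 15 other settings brought the adjusted p under 0.05. The exact two-sided permutation test gave p = 0.1, the smallest that 3 libraries against 3 allow. The values rest on 85 to 159 counts a library, the fewest of the 3 members that met the study's criteria.

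*Dusp1* (chromosome 17, 26724564 to 26781102), the MAP kinase phosphatase of the list, was the member that rose. WT libraries had 22.8, 22.2 and 23.7 CPM and *Drp1* KO libraries had 40.9, 29.3 and 35.8 CPM. All *Drp1* KO libraries were above all WT libraries, and they spread more. Means were 22.9 ± 0.732 CPM in WT against 35.3 ± 5.81 CPM in *Drp1* KO (SD, n = 3 each), a fold of 1.54 and a log2 fold change of 0.62 (95% interval 0.33 to 0.91, adjusted p = 0.0302, edgeR). The same-number differences were 0.84, 0.40 and 0.59, higher in 3 of 3 pairs, as in 23.7% of all genes, and with the block the adjusted p was 0.00309 (edgeR). The call depended on which libraries were fitted. Leaving out 1 library at a time kept the log2 fold change between 0.50 and 0.75. The adjusted p (edgeR) was then 0.0554, 0.172 and 0.117 with WT library 1, 2 or 3 left out, and 0.0528, 0.0216 and 0.0800 with *Drp1* KO library 1, 2 or 3 left out, so the call held in 1 of these 6 fits. With libraries 1 of both groups left out together it was 0.0326 (edgeR). Neutrophils also express *Dusp1*, and the neutrophil markers given above were fitted higher in *Drp1* KO, 4 of 6 past the threshold with the block. In gene spans, introns included, *Gm56886*, *Gm8225*, *Ergic1* and *Gm64855* are annotated on the opposite strand over 1458, 956, 667 and 427 bases of *Dusp1*. On the same strand, *Gm50275* and *Gm50274* are annotated over 1866 and 227 bases, and overlap with the counted exons was not measured. The part of neutrophils or of these genes in the result was not tested, and in bulk RNA more cells of a type and more RNA per cell cannot be told apart.

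The estimated counts by transcript assigned the higher level of *Dusp1* to its transcript Dusp1-206. This transcript had 7.79, 10.9 and 9.97 CPM in WT against 23.4, 16.5 and 21.6 CPM in *Drp1* KO, without overlap between the groups. Dusp1-202, the canonical transcript, had 12.6, 9.93 and 11.8 CPM in WT against 14.7, 9.47 and 8.33 CPM in *Drp1* KO, and the groups overlapped. As a share of the gene's counts, Dusp1-206 took 41.8% ± 7.4 in WT and 58.0% ± 2.1 in *Drp1* KO, and Dusp1-202 took 50.0% ± 5.2 and 30.5% ± 6.5 (SD, n = 3 each). Shares of both did not overlap between groups (p = 0.1 in an exact two-sided permutation test, its lower limit), as in 16.5% of all transcripts of genes with more than 1. Their first exons start at different bases and end at different bases, and that of Dusp1-206 closes 355 bases earlier. The first exon runs from 26726931 to 26727493 in Dusp1-202 and from 26727286 to 26727446 in Dusp1-206, and both join the exon from 26726548 to 26726693. The 30 bases across each junction are shown because the transcripts differ there, with the first exon in lower case and the next exon in capitals.
Dusp1-202 junction, chr17, minus strand, GRCm39: tcttctttctccaagGAGGATATGAAGCGT
Dusp1-206 junction, chr17, minus strand, GRCm39: gccatggtgatggagGAGGATATGAAGCGT
Only 45 of the 1960 31-base words of Dusp1-202 (2.30%) and 27 of the 1558 of Dusp1-206 (1.73%) are in no other *Dusp1* transcript. The split between them thus rests on few sequence differences, and the sum over transcripts does not depend on it. Dusp1-203, annotated as a retained intron, had 1.74 ± 0.425 CPM in WT against 3.37 ± 1.74 CPM in *Drp1* KO (SD, n = 3 each), with overlap.

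**Figure D3:**
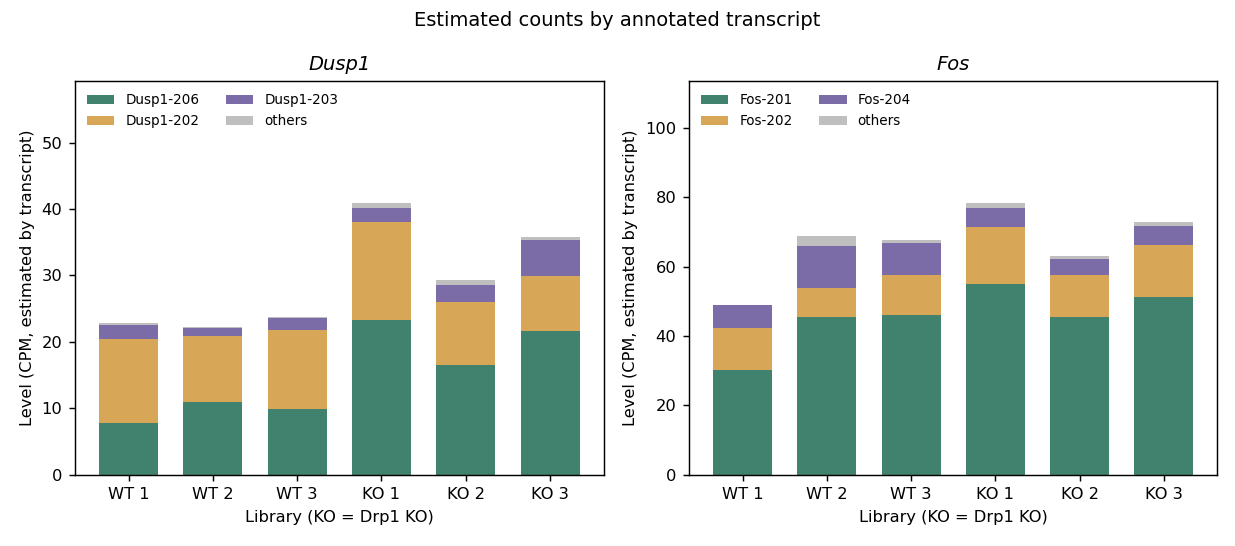
Estimated counts of *Dusp1* (left) and *Fos* (right) by annotated transcript, in CPM (y axis, linear, from 0), stacked for each of the 3 WT and 3 *Drp1* KO libraries. The Dusp1-206 segment is 7.79 to 10.9 CPM in WT against 16.5 to 23.4 CPM in *Drp1* KO, and the Fos-204 segment is 6.48 to 11.95 CPM in WT against 4.81 to 5.59 CPM in *Drp1* KO.

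For *Fos*, which was not called as a gene, the shares of Fos-204 and Fos-201 did not overlap between groups, while those of Fos-202 and Fos-203 overlapped. Fos-204, a transcript with no annotated coding sequence, had 6.48, 11.95 and 9.06 CPM in WT against 5.59, 4.81 and 5.32 CPM in *Drp1* KO, without overlap. Its share of the gene was 14.7% ± 2.3 in WT against 7.36% ± 0.25 in *Drp1* KO, and that of the coding Fos-201 was 65.4% ± 3.3 against 71.0% ± 0.99 (SD, n = 3 each). Both shares had p = 0.1 in an exact two-sided permutation test, its lower limit. Shares did not overlap for 16.5% of all transcripts of genes with more than 1. Of all single transcripts, 17.6% did not overlap between groups in CPM, and 27 of the 804 31-base words of Fos-204 are in no other *Fos* transcript. The coding Fos-201 had 40.7 ± 9.01 CPM in WT against 50.6 ± 4.86 CPM in *Drp1* KO (SD, n = 3 each), with overlap. The 2 annotated *Jun* transcripts have the same sequence, and their counts were split evenly.

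The genes around the members were described from lists of the same pathway, which were chosen with earlier results of these data known. Of 33 other immediate early genes tested, 1 rose and 0 fell at an adjusted p under 0.05 (edgeR), while 20 were fitted higher and 13 lower, with a median log2 fold change of 0.12 against 0.005 over all genes. The call was *Rgs1*, a GTPase activator that dampens chemokine receptors, with 84.2, 89.9 and 79.0 CPM in WT against 210, 244 and 183 CPM in *Drp1* KO. Its log2 fold change was 1.33 (SE 0.119, adjusted p = 0.000389, edgeR), and it passed in all 15 other settings. With the block, *Klf4*, *Klf6* and *Csrnp1* were also called higher and *Egr2* lower. Of 14 further bZIP genes that can pair with or compete with AP-1, 1 fell, *Maf*, the factor of the IL-10 and resident macrophage programme. *Maf* had 887, 720 and 822 CPM in WT against 528, 564 and 612 CPM in *Drp1* KO, a log2 fold change of -0.51 (SE 0.110, adjusted p = 0.0335, edgeR). It passed in 8 of 15 other settings and in 0 of the 6 that leave out 1 library. *Atf3*, a stress-induced bZIP repressor, was at 624 ± 112 CPM in WT against 597 ± 59.8 CPM in *Drp1* KO (SD, n = 3 each, adjusted p = 0.899, edgeR).

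In 4 lists of genes that act on the members, 0 genes passed an adjusted p under 0.05 by edgeR without the block, by DESeq2 or by voom. These were 16 other MAP kinase phosphatases and ERK feedback genes, 21 genes of the MAP kinase cascade, 14 genes of the SRF, ternary complex factor, CREB and NAB group, and 12 genes of AU-rich mRNA decay. At an unadjusted p under 0.05 (edgeR) the lists had 2, 1, 2 and 1 genes in this order, where 16.4% of all genes tested were under it. Of the phosphatases and feedback genes, 12 were fitted higher and 4 lower, with a median log2 fold change of 0.25. The smallest p-values there belonged to *Spred1* and *Spred2*, inhibitors of RAF activation, with log2 fold changes of 0.32 (adjusted p = 0.155, edgeR) and 0.33 (adjusted p = 0.201, edgeR). The medians of the other 3 lists were 0.04, 0.05 and 0.05. In the cascade *Map2k2*, which encodes MEK2, was at -0.30 (adjusted p = 0.313, edgeR). *Elk4*, a ternary complex factor, was at 0.27 (adjusted p = 0.144, edgeR), and *Nab2*, an EGR corepressor that EGR proteins also induce, was at -0.31 (adjusted p = 0.225, edgeR). *Cnot7*, a deadenylase, was at 0.25 (adjusted p = 0.198, edgeR), and *Hnrnpd*, which binds AU-rich elements, was at -0.29 (adjusted p = 0.305, edgeR). With the block, 2 genes of the feedback list (*Dusp4* and *Spred1*) and *Elk4* and *Cnot7* were called higher, and *Map2k2*, *Mapkapk2* and *Nab2* lower, where 12% of all genes were called.

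Of 13 known targets of AP-1 and EGR factors that were tested, 9 were fitted higher and 4 lower, with a median log2 fold change of 0.17. *Mmp13*, a collagenase whose promoter holds a classical AP-1 site, was called higher. It had 15.96, 12.8 and 13.6 CPM in WT against 39.4, 26.8 and 56.5 CPM in *Drp1* KO, a log2 fold change of 1.54 (SE 0.232, adjusted p = 0.00635, edgeR). Without WT library 2 its adjusted p was 0.0575 (edgeR), and it passed in the other 14 settings. With the block, *Ccnd1* and *Spp1* were also called higher (adjusted p = 0.0103 and 0.00366, edgeR) and *Nab2*, which is in this list too, lower.

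**Figure D4:**
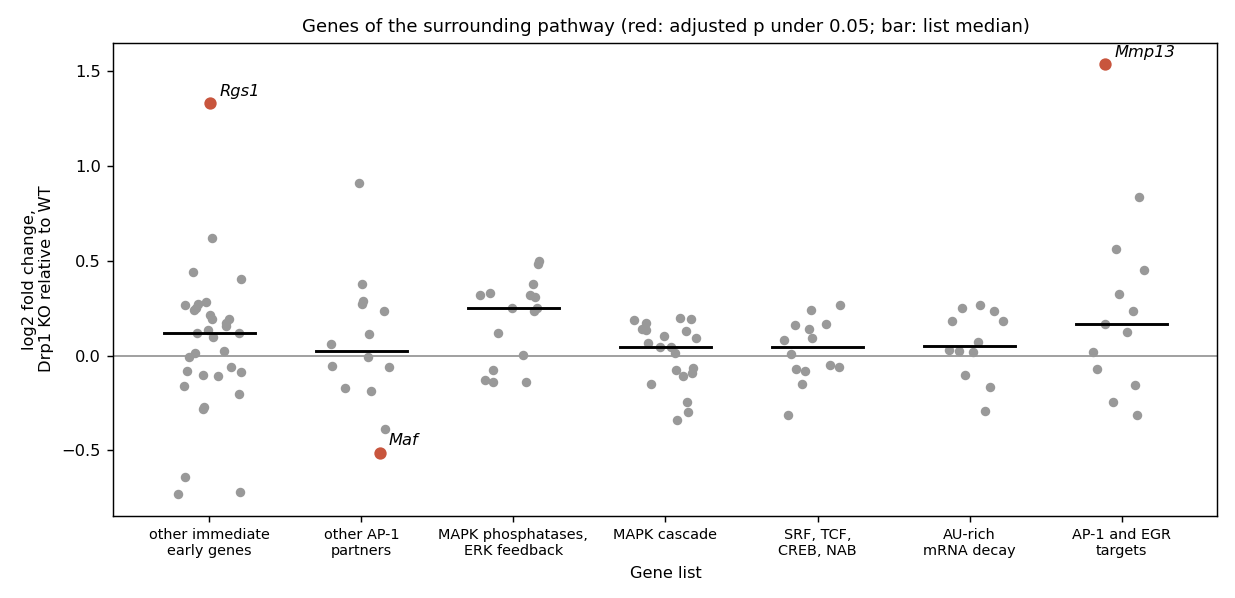
Fitted log2 fold change, *Drp1* KO relative to WT (y axis), of each tested gene in 7 lists around the members (x axis, points spread sideways for legibility), with a bar at each list's median; red points have an adjusted p under 0.05 and the 10 members are left out. *Rgs1* and *Mmp13* lie above 1 and *Maf* at -0.51, and the medians lie between 0.03 and 0.25.

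*Drp1* KO library 1 was the highest of its group for 8 of the 10 members, all but *Egr1* and *Ier2*, and WT library 1 was the highest of its group for *Jun*, *Junb*, *Jund* and *Egr1* and the lowest for *Fos*, *Fosb*, *Egr3* and *Ier2*. Averaged over the members, the log2 level centred on each gene's mean ran from -0.202 in *Drp1* KO library 2 to 0.162 in *Drp1* KO library 1. The members differed from this average. In WT library 1 it was 0.0876, where *Egr1*, with 32 counts, was at 1.15 and *Fos* at -0.423. Closeness to the average is thus not closeness to any single member. The 5 genes of 12240 closest to this average profile, by Euclidean distance over the 6 libraries, were *Pigs* (0.0514), *Prrc2a* (0.0543), *Camta2* (0.0575), *Aldh3b1* (0.0630) and *Pdia4* (0.0672). Each of them had an interval of its log2 fold change that included 0.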

How the data were processed

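Poly(A) RNA of BMDMs after HSS was sequenced with paired ends. Per the labels and the methods, the authors quantified reads with kallisto 0.46.1 on Ensembl cDNA of GRCm39 and deposited tables with 3 values per transcript: an estimated count, a TPM value and an effective length (a signal, used only in the length-scaled alternative). The deposited estimated counts are not normalized, and TPM values are scaled within a library. GENCODE identifiers matched 99.4% of 116873 transcripts, on 36137 genes; the rest, up to 0.575% of the counts in a library, were dropped. Unique 31-base words were counted in GENCODE M39 sequences, which are 1 base longer than the deposited length for Dusp1-205 and Dusp1-206 and 6 for Fos-201.

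Gene sums of the estimated counts were rounded to integers, and genes reaching 10 counts in total were fitted with edgeR 4.0.16 (R 4.3.3, TMM, quasi-likelihood, no covariate). Called means a Benjamini-Hochberg adjusted p under 0.05. The members and lists were chosen with earlier results of these data known. The genes named are the members, *Dnm1l*, and of each list those that passed (at most 4) or otherwise the 2 with the smallest p, and the 5 genes closest to the members' mean profile. *Atf3*, *Fcgr1*, *Csf1r*, *Mertk*, *Kdr*, *S100a8*, *S100a9*, *Ltf*, *Ngp*, *Gm56886*, *Gm8225*, *Ergic1*, *Gm64855*, *Gm50275*, *Gm50274*, *Junos*, *Prdx2*, *Gm11175* and the genes called only with the block were added after their values were seen, and some genes that the rule names are not reported here.

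The labels' replicate numbers were treated as pairs because of the data: deviations from the group mean correlated at 0.539, 0.218 and 0.352 between libraries 1, 2 and 3 (12248 genes, each over 0.1), and at -0.481 to 0.339 between different numbers. WT library 2 correlated more with *Drp1* KO library 3, at 0.339, than with *Drp1* KO library 2, at 0.218. The block was thus chosen from the data that it was used on, and the sources used here state no pairing. No library was a copy of another (chi-square per degree of freedom at least 10.4). On simulated data with 200 of 18506 genes changed 2-fold, the test recovered 74.5% and made 10 false calls. The changed genes were drawn from those above a mean count limit, and no pairing was simulated. The recovery of smaller differences or of genes with few counts was thus not measured. Alternatives were DESeq2 1.42.0, voom of limma 3.58.1, other size factors and filters, length-scaled counts, a replicate block, and libraries left out.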

Additional observations from a re-analysis of the deposited data

How the results depend on the processing

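The number of members called at an adjusted p under 0.05 (edgeR, 1 of 10) was 2 with the replicate block and 3 (*Jun*, *Jund* and *Dusp1*) without libraries 1 of both groups. It ran from 0 to 1 with each library left out in turn, and it stayed 1 under the other settings. The block changed the call of *Jun* and of no other member. The number fitted lower, 4, was 9 without libraries 1 of both groups and 4 to 8 with each library left out. Over all genes, the 621 calls became 1155 with DESeq2, 1065 with a filter of 1 count, 2212 with the replicate block, 1880 without libraries 1 of both groups and 181 to 904 with each library left out. Members with small fitted differences changed direction. Without libraries 1 of both groups the log2 fold change was -0.0080 for *Fos*, -0.25 for *Fosb*, -0.12 for *Fosl2*, -0.048 for *Junb* and -0.39 for *Egr3*. With length-scaled counts it was -0.20 for *Fosb* and -0.069 for *Fosl2*, with library size only -0.00060 for *Fosb* and -0.0092 for *Egr3*, and for *Egr3* -0.072 with voom and -0.018 with the replicate block. With each library left out it ran from -0.19 to 0.20 for *Fosb*, -0.12 to 0.15 for *Fosl2*, -0.094 to 0.078 for *Junb*, -0.25 to 0.28 for *Egr3*, -0.99 to 0.12 for *Fosl1*, -0.16 to 0.0064 for *Prrc2a*, -0.18 to 0.014 for *Camta2* and -0.17 to 0.011 for *Aldh3b1*. The cause was not tested. *Jun*, *Jund*, *Egr1*, *Ier2* and *Dusp1* kept their direction in every setting that gave a value. DESeq2 gave no adjusted p for *Egr1*, and edgeR's filterByExpr left it out. Depth limits *Egr1*, *Egr3* and *Fosb*, which had 2 to 49 counts a library.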

Other observations

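*Egr3* was not called as a gene. Its coding transcript Egr3-204 took 46.95%, 100% and 77.7% of the gene's counts in WT libraries 1, 2 and 3, and 0% in each *Drp1* KO library. The retained-intron transcript Egr3-202 took 93.6%, 95.4% and 94.0% in *Drp1* KO libraries 1, 2 and 3. It took 53.05% in WT library 1, which was split between both transcripts, 0% in WT library 2 and 0.00048% in WT library 3. These shares rest on 13 to 26 counts a library, and shares did not overlap between groups for 16.5% of all transcripts of genes with more than 1. In the annotation, 5.67% of the 31-base words of Egr3-202 are in no other *Egr3* transcript. For Egr3-204 it lists 4353 bases against 3940 in the deposited tables, and for Egr3-201 4104 against 1509, so this share was not counted in the authors' own transcript sequences.

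Further genes of the AP-1 and EGR target list met the study's criteria without passing the adjusted test in the fit without the block. *Ccnd1* and *Spp1* passed it with the block, and each in 5 of 15 other settings in all. *Ccnd1*, the cyclin of G1 and an AP-1 target, had 24.1, 21.9 and 20.7 CPM in WT against 30.7, 28.9 and 39.0 CPM in *Drp1* KO (log2 fold change 0.56, adjusted p = 0.0512, and 0.0103 with the block, edgeR). *Spp1*, which encodes osteopontin, had 3153 ± 287 CPM in WT against 4315 ± 21.1 CPM in *Drp1* KO (SD, n = 3 each, log2 fold change 0.45, adjusted p = 0.0508, and 0.00366 with the block, edgeR). The groups did not overlap for these 2 genes, which were named after their values were seen.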
